A study of Mus musculus with 6 samples.

Results

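Surface receptors that hold back or tune T-cell receptor signals were followed in double-negative (DN) thymocytes, early T-lineage cells without CD4 or CD8. They are Pdcd1, Ctla4, Cd5, Cd6, Lag3, Btla, Tigit, Havcr2, Cd160 and Cd200, that is, 10 of 19937 genes with a probe set of their own on the array. The list was chosen by known role and by the measured log2 differences between the 2 groups on these same arrays. The values of the receptors themselves are therefore given as a description, without a test, and each receptor was measured by 1 probe set.

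Transcripts were measured on 6 Affymetrix arrays of 1 colour, 3 per group. The RAG-/- group, labelled control, holds DN thymocytes of Rag2-/- mice, which cannot assemble antigen receptor genes. The DNTLX3+ group, labelled tumoral, holds sorted DN thymocytes of wild-type mice given a GFP-carrying pMSCV retrovirus with TLX3, a homeobox gene known as an oncogene of T-cell leukaemia. The transduced cells were then grown for 4 to 5 weeks on irradiated OP9-DL1, a stromal line that presents a Notch ligand, with IL-7 and Flt3L. The thymi came from C57Bl/6 mice aged 4 to 6 weeks, and DN cells were isolated by depletion of CD4- and CD8-bearing cells and flow sorting. Genotype, virus and time in culture cannot be told apart between the groups. The labels do not make clear whether the RAG-/- cells were cultured, and arrays of cells with the GFP virus alone were not analysed here. The labels do not state that the replicates are separate mice or cultures. The p-values therefore cover only the scatter among these 6 samples, which may be technical.

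Inhibitory receptors carry short tails that recruit phosphatases or compete for ligands of costimulatory receptors, and most of them are known from activated, exhausted or regulatory T cells. CD5 and CD6 are scavenger-receptor family proteins, present from early thymocytes on, which set the strength of the receptor signal. CD5 in thymocytes is known to follow the strength of signals through the pre-T-cell receptor and the mature receptor. CD200 is the ligand side of an inhibitory pair, whose receptor sits mainly on myeloid cells.

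The promoters of Pdcd1, Ctla4 and Cd5 are shown because these genes, with Cd6, lay farthest from equality between the groups. Each run is the 300-base window from 250 bases before to 50 bases after the gene's start, on its own strand, from RefSeq on GRCm38.p6. Capitals mark the core letters known for NFAT, GGAAA on either strand. NFAT is the calcium-activated factor known to drive Pdcd1. The marked letters are matches of sequence only, and whether NFAT acts on them was not tested.
Pdcd1 (chr1:94052504-94052803, minus strand): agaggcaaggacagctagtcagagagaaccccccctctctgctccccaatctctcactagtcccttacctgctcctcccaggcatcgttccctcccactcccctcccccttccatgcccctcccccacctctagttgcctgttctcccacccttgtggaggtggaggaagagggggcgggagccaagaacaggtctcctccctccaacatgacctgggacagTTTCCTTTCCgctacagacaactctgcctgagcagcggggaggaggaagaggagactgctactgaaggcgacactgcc
Ctla4 (chr1:60908775-60909074, plus strand): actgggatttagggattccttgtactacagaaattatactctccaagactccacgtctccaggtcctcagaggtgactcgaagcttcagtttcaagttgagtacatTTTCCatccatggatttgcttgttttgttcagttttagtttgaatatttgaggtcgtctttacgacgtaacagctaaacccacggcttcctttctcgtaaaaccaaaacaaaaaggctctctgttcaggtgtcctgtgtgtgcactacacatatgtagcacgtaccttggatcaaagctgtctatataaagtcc
Cd5 (chr19:10738925-10739224, minus strand): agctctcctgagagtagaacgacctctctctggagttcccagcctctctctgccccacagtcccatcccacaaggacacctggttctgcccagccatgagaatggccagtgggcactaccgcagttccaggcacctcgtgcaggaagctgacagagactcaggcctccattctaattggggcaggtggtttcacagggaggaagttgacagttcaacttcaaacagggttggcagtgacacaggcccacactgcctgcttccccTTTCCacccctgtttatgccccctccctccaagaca

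The windows differed in their composition and in the letters they hold. The Pdcd1 window had 60.7% G and C, the Cd5 window 57.3% and the Ctla4 window 42.0%, against a median of 52.7% over 32851 promoters. The Pdcd1 window held the NFAT core at 2 adjacent places, at positions -28 and -23 from the start, and the other two held it at 1 place each. At least 1 such match stands in 61.3% of all promoters. E-boxes (CANNTG), the letters bound by E proteins, were found at 2 places in the Ctla4 window, 2 in the Cd5 window and 0 in the Pdcd1 window, and stand in 72.3% of all promoters. The letters TAATTG, a core shared by many homeodomain proteins, were found in the Cd5 window, at position -78 from the start, and in 8.0% of all promoters. In these 3 windows no match overlapped a match of another motif. A promoter was matched for 8 of the 10 receptors, not for Cd6 and Lag3.

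Values are log2 expression on the deposited scale, and every difference is DNTLX3+ minus RAG-/-. The array medians lay between 6.22 and 6.35, and a mean below them may be background. The arrays of the DNTLX3+ group had a narrower signal range, with an interquartile range of 2.47 to 2.85 log2 units against 3.09 to 3.18. DNTLX3+ replicate 1 had the narrowest range and correlated least with its own group (mean r of 0.976 across probe sets). Tlx3 itself stood at 5.40 to 5.52 on the RAG-/- arrays, under the array medians, and rose to 6.45 to 7.09 on the DNTLX3+ arrays (limma adjusted p = 0.00103). The species of the TLX3 in the virus is not given, so how well this mouse probe set reads it is not known. Rag2 was 8.02 in the RAG-/- group and 7.72 in the DNTLX3+ group (limma adjusted p = 0.124), and since the place of its probe set relative to the deletion was not known, this checks nothing of the genotype. The median SD of a gene was 0.10 in the RAG-/- group and 0.20 in the DNTLX3+ group, and the number of arrays limits the precision.

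Pdcd1 was higher and Ctla4 lower in the DNTLX3+ arrays, by similar amounts, and Cd5 and Cd6 were both higher by somewhat less. The other 6 receptors stood near or below the array medians and differed by at most 0.51 log2 units. Pdcd1 and Ctla4 were the receptors with a log2 difference of 1 or more in size, and since the list was chosen on these values, nothing is read from that count. For genes outside the list, a call needed a difference of that size together with a limma adjusted p under 0.05. Over all genes 6.51% were called, 1.44% as higher and 5.07% as lower, and 42.4% met the adjusted p alone. The median difference of the 10 receptors was -0.15, against 0.11 over all genes. The plot of each receptor by array shows the 6 values beside each other.

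**Figure D1:**
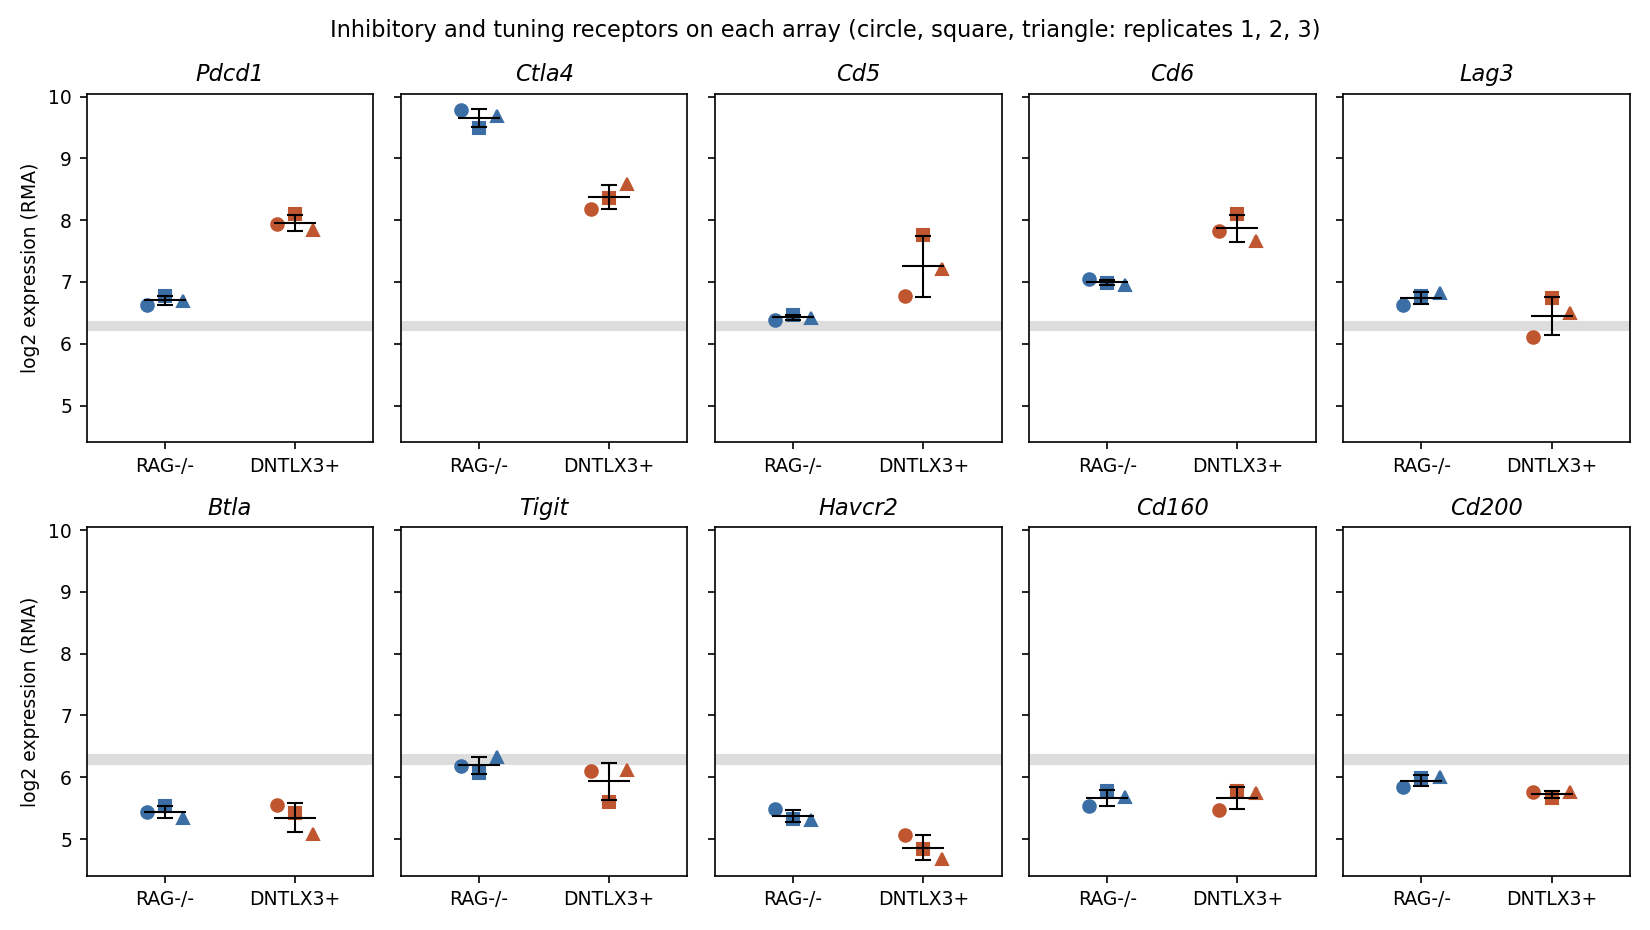
Log2 expression of the 10 receptors on each array (y axis), by group (x axis), where circles, squares and triangles are replicates 1, 2 and 3, horizontal bars with whiskers are means with SD (n = 3), and the grey band spans the array medians. Pdcd1, Cd5 and Cd6 are higher on all 3 DNTLX3+ arrays, Ctla4 is lower on all 3, and Btla, Tigit, Havcr2, Cd160 and Cd200 have group means under the band in both groups.

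Pdcd1 encodes PD-1, which recruits the phosphatase SHP-2 on binding its ligands. It stood at 6.63, 6.77 and 6.70 in RAG-/- replicates 1, 2 and 3 and at 7.94, 8.09 and 7.83 in DNTLX3+ replicates 1, 2 and 3. All 3 DNTLX3+ arrays were high, and the groups lay 1.06 log2 units apart at their nearest arrays. The means were 6.70 ± 0.07 and 7.96 ± 0.13 (SD, n = 3), a difference of 1.25 ± 0.13 (SE) or 2.38-fold. Of all genes, 99.7% had a lower signed difference, a rank that only describes a value the list was chosen on. With any 1 array left out the difference stayed between 1.18 and 1.31.

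Ctla4 encodes a receptor that binds the B7 ligands in competition with CD28. It stood at 9.78, 9.50 and 9.68 in the RAG-/- arrays and at 8.18, 8.36 and 8.58 in the DNTLX3+ arrays. The groups did not overlap, and all 6 values lay well above the array medians. The means were 9.65 ± 0.14 and 8.37 ± 0.20 (SD, n = 3), a difference of -1.28 ± 0.15 (SE), so that Ctla4 was 2.42-fold lower. In these bulk samples, fewer cells of a type and less RNA per cell cannot be told apart. With 1 array left out the difference stayed between -1.38 and -1.18, and it was -1.11 after quantile normalization of the values again.

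Cd5 and Cd6, which encode the scavenger-receptor pair, lay on chromosome 19 with 1 measured gene between them, A430093F15Rik. Cd5 stood at 6.39, 6.47 and 6.42 in the RAG-/- arrays and at 6.78, 7.76 and 7.22 in the DNTLX3+ arrays. The RAG-/- values were tight and just above the array medians, while the DNTLX3+ values were spread out, with replicate 1 lowest and replicate 2 highest. The means were 6.43 ± 0.04 and 7.25 ± 0.49 (SD, n = 3), a difference of 0.82 ± 0.22 (SE) or 1.77-fold. The SD of Cd5 in the DNTLX3+ group was larger than that of 95.8% of genes. Without DNTLX3+ replicate 1 the difference was 1.06, and without replicate 2 it was 0.57.

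Cd6 stood at 7.04, 6.98 and 6.95 in the RAG-/- arrays and at 7.83, 8.11 and 7.67 in the DNTLX3+ arrays. The groups did not overlap, and the DNTLX3+ values were closer to each other than those of Cd5. The means were 6.99 ± 0.05 and 7.87 ± 0.22 (SD, n = 3), a difference of 0.88 ± 0.14 (SE) or 1.84-fold. Cd5 and Cd6 lay just short of the minimum difference of 1, a size of 0.8 or more being reached by 12.8% of genes. After quantile normalization again the difference of Cd6 was 1.04, past that minimum.

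Lag3 encodes a CD4-related receptor for MHC class II. It stood at 6.63, 6.77 and 6.82 in the RAG-/- arrays and at 6.11, 6.73 and 6.50 in the DNTLX3+ arrays. The groups overlapped, and DNTLX3+ replicate 1 was the low array. The difference was -0.29 ± 0.17 (SE), and -0.12 without that array.

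Havcr2 and Tigit encode TIM-3 and a receptor for nectin-family proteins. Havcr2 stood at 5.49, 5.32 and 5.32 in the RAG-/- arrays and at 5.07, 4.85 and 4.67 in the DNTLX3+ arrays. All 6 values were below the array medians, and the DNTLX3+ values were the lower ones, with a difference of -0.51 ± 0.14 (SE). Tigit stood at 6.19, 6.06 and 6.34 in the RAG-/- arrays and at 6.10, 5.59 and 6.12 in the DNTLX3+ arrays. The groups overlapped and replicate 2 of the DNTLX3+ group stood low, with a difference of -0.26 ± 0.17 (SE) that became -0.09 without it.

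Btla and Cd160 encode receptors that share the ligand HVEM. Btla stood at 5.43, 5.54 and 5.34 in the RAG-/- arrays and at 5.55, 5.42 and 5.08 in the DNTLX3+ arrays, a difference of -0.09 ± 0.15 (SE). Cd160 stood at 5.53, 5.78 and 5.68 in the RAG-/- arrays and at 5.46, 5.77 and 5.75 in the DNTLX3+ arrays, a difference of -0.00 ± 0.14 (SE). Both pairs of groups overlapped below the array medians, and the sign of both differences turned when some single arrays were left out, with ranges of -0.19 to 0.05 for Btla and -0.07 to 0.10 for Cd160. Cd200 stood at 5.84, 5.98 and 6.01 in the RAG-/- arrays and at 5.75, 5.67 and 5.76 in the DNTLX3+ arrays. Its values were below the array medians too, and its groups lay only 0.08 apart, with a difference of -0.22 ± 0.12 (SE).

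Of the 10 receptors, 6 had groups that did not overlap, 3 of them higher (Pdcd1, Cd5 and Cd6) and 3 lower (Ctla4, Havcr2 and Cd200), while 58.3% of all genes had groups that did not overlap, 32.3% higher and 26.0% lower. The plot of level against difference places the 10 among all genes. Where the values were rescaled, the dim receptors moved together: after cyclic loess, which lowered the median over all genes from 0.11 to 0.00, Havcr2 stood at -0.79, Cd200 at -0.41, Btla at -0.34 and Cd160 at -0.22. Pdcd1 stood at 1.37 and Ctla4 at -1.12 in that setting, and Cd5 at 0.85.

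**Figure D2:**
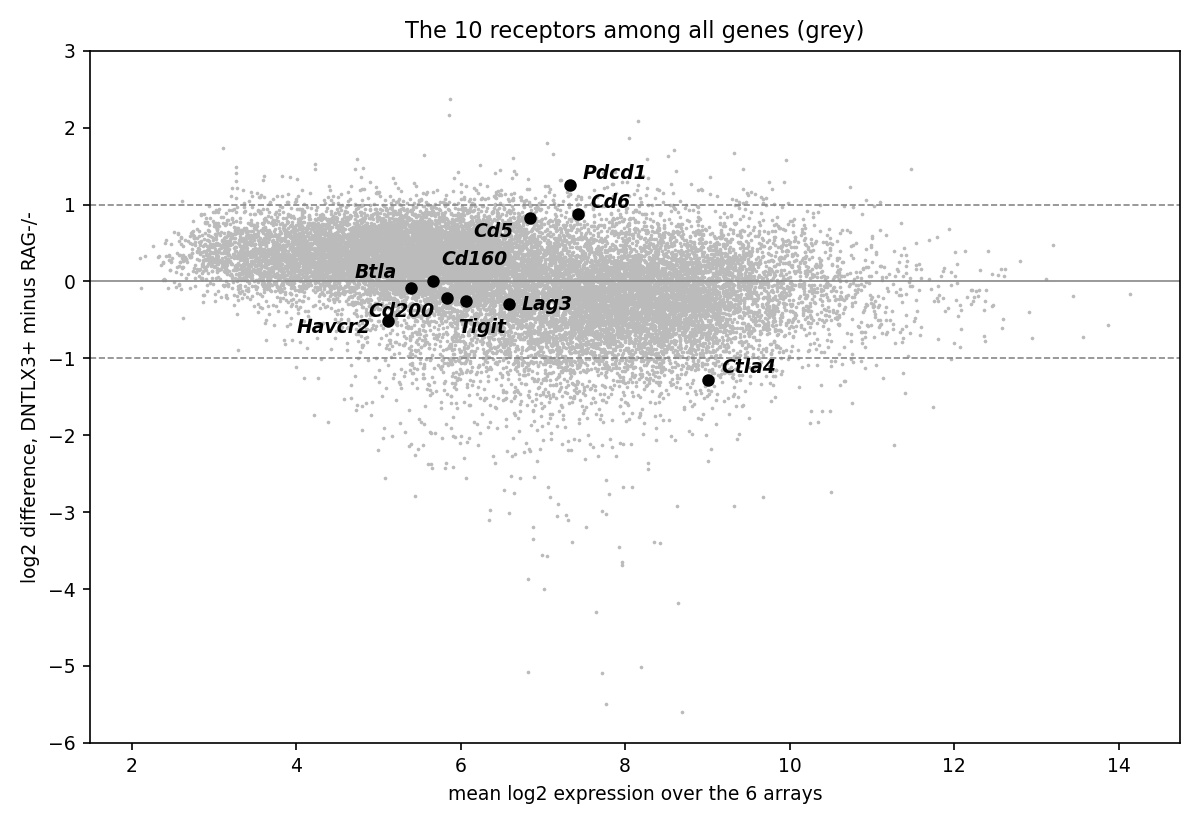
Log2 difference, DNTLX3+ minus RAG-/- (y axis), against the mean log2 expression over the 6 arrays (x axis) for all 19937 genes (grey) and the 10 receptors (black), with dashed lines at a difference of 1 in either direction. Pdcd1 lies above the upper line and Ctla4 below the lower one, Cd5 and Cd6 lie just under the upper line, and the other 6 lie between -0.51 and 0.

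**Figure D3:**
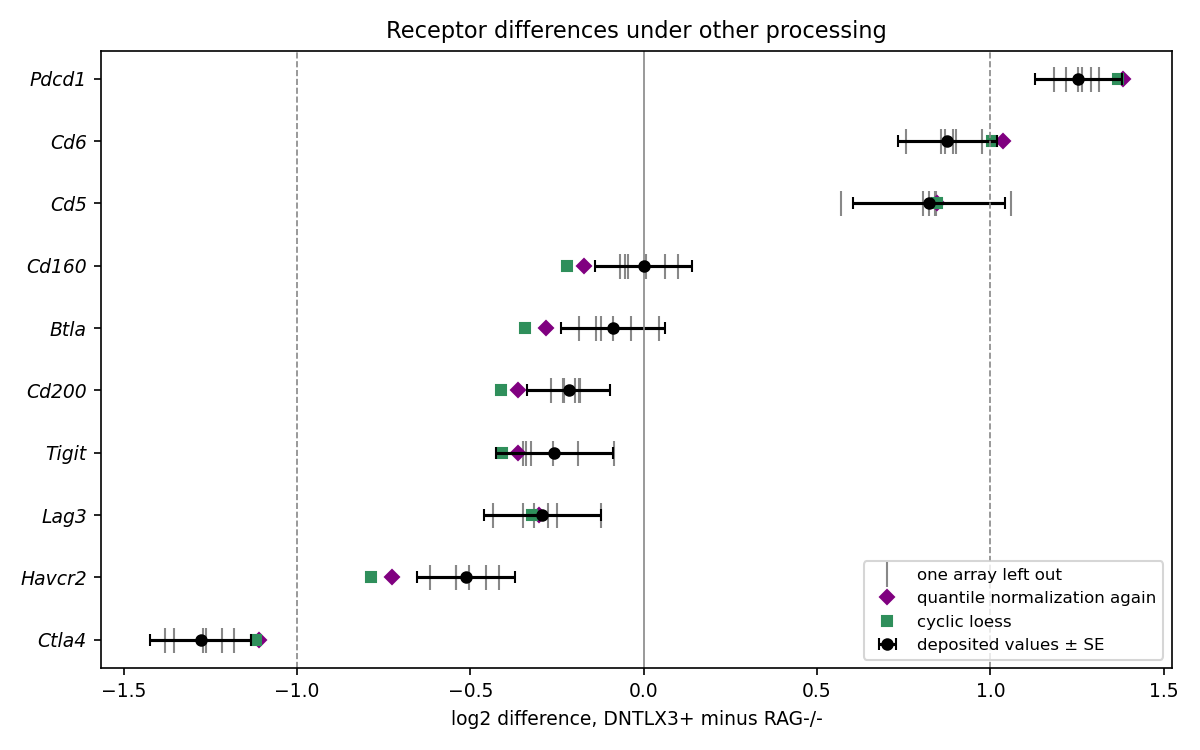
Log2 difference of each receptor (x axis) on the deposited values with its SE (black), with 1 array left out at a time (grey ticks), after a second quantile normalization (purple) and after cyclic loess (green), with dashed lines at a difference of 1. Pdcd1 and Ctla4 stay beyond the lines in these settings, Cd5 ranges from 0.57 to 1.06, and Btla and Cd160 lie on both sides of 0.

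The genes nearest in pattern were sought among 10789 genes with a group mean over the median of all gene means, by the root mean square difference of mean-centred log2 values over the 6 arrays. Nearest to Pdcd1 were Get3 (0.05 log2 units) and Phlda1 (0.05), with differences between the groups of 1.21 and 1.19. Nearest to Ctla4 were Ing4 (0.04) and Ric8b (0.05), with differences of -1.30 and -1.26. Nearest to Cd6 were Ndufb10 (0.05) and Ubqln2 (0.06). Cd5 had less close neighbours in pattern, Mroh2a (0.09) and the mitotic kinase Melk (0.12), both of which were also highest on DNTLX3+ replicate 2. For the other 6 receptors, the 2 nearest genes lay at 0.03 to 0.06.

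The genes beside these receptors on the chromosome differed less than the receptors did for Pdcd1, Ctla4, Cd5 and Cd6. Ctla4 lies between Cd28, its activating counterpart, and Icos, another costimulatory receptor. Cd28 stood at 7.47, 7.52 and 7.20 in the RAG-/- arrays and at 7.44, 8.50 and 8.35 in the DNTLX3+ arrays. DNTLX3+ replicate 1 was level with the RAG-/- arrays and the other two were high, with a difference of 0.70 ± 0.26 (SE, limma adjusted p = 0.051). Icos differed by -0.14 (limma adjusted p = 0.374). The measured genes on either side of Pdcd1, Neu4 and Fam174a, differed by 0.55 and -0.22. On the outer sides of Cd5 and Cd6, Vps37c differed by -0.53 and Slc15a3 by -0.49, and A430093F15Rik between them by 0.61. None of these neighbours was called. The means of Icos and A430093F15Rik in both groups, and of Neu4 in the RAG-/- group, lay under the array medians and may be background.

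Genes of the pathways around the receptors were counted on 6 lists by role, with 120 genes measured. Of them 22 fell, 3 rose and 95 were not called (limma, adjusted over all 28192 probe sets), against 5.07% lower and 1.44% higher over all genes. The 3 that rose were all transcription factors, and the median difference was -0.26. The lists were written with earlier results of these data known, so nothing is read from the comparison with all genes. That comparison was also not matched for level. Among genes with a probe set above the median level the median difference was -0.14, against 0.11 over all genes. With cyclic loess, 16 pathway genes fell and 3 rose. The plot of pathway genes shows each list.

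Of 18 ligands and counter-receptors, 5 fell, none rose and 13 were not called, with a median difference of -0.21. Cd274, which encodes the PD-1 ligand PD-L1, stood at 7.86, 7.59 and 7.83 in the RAG-/- arrays and at 6.88, 6.38 and 6.90 in the DNTLX3+ arrays. It was low on all 3 DNTLX3+ arrays, 2.06-fold (difference -1.04 ± 0.17 SE, limma adjusted p = 0.00188). Pdcd1lg2, for PD-L2, differed by 0.06 from means far below the array medians.

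Alcam, which encodes the CD6 ligand, fell 2.39-fold from 7.96 ± 0.30 to 6.71 ± 0.26 (SD, n = 3; limma adjusted p = 0.00125). Cd72, for a proposed CD5 ligand of B cells, fell by 1.06 (limma adjusted p = 0.000587) between means below the array medians. For CTLA-4, Cd86 fell by 1.07 (limma adjusted p = 0.00103) to 5.27, below the array medians, and Cd80 differed by -0.25. Cd80 too had means below the array medians in both groups, and its dimmer probe set, not used, differed by -0.68. Lgals3, a galectin reported to bind LAG-3, fell by 1.03 (limma adjusted p = 0.00154), a call lost after a second quantile normalization (-0.91), with cyclic loess (-0.92), with array weights (-0.88), without RAG-/- replicate 3 (-0.99) and without DNTLX3+ replicate 1 (-0.88).

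The remaining ligand genes were not called. Tnfrsf14, which encodes HVEM, differed by -0.41, and Pvr, Nectin2 and Nectin3, of the TIGIT ligands, by 0.29, 0.27 and 0.03. Among TIM-3 ligands, Lgals9 stood high in both groups (10.80 and 10.97) and differed by 0.17, and Hmgb1 and Ceacam1 differed by 0.04 and -0.21. For LAG-3, Fgl1 and Clec4g differed by -0.13 and -0.21, and the CD200 receptor genes Cd200r1 and Cd200r3 by -0.31 and -0.13. A dimmer probe set of Clec4g, not used, differed by 0.67. Pvr, Nectin2, Nectin3, Ceacam1, Fgl1, Clec4g, Cd200r1 and Cd200r3 had means below the array medians in both groups, which may be background. The number of ligand genes that fell was 3 after a second quantile normalization, with cyclic loess and without RAG-/- replicate 1. Cd274 stood at -0.90, -0.94 and -0.99 in these 3 settings and was not called, and without DNTLX3+ replicate 2 it stood at -0.87 and was not called either. The call of Cd86 was lost without RAG-/- replicate 1 (-0.99) and without DNTLX3+ replicate 3 (-0.95).

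**Figure D4:**
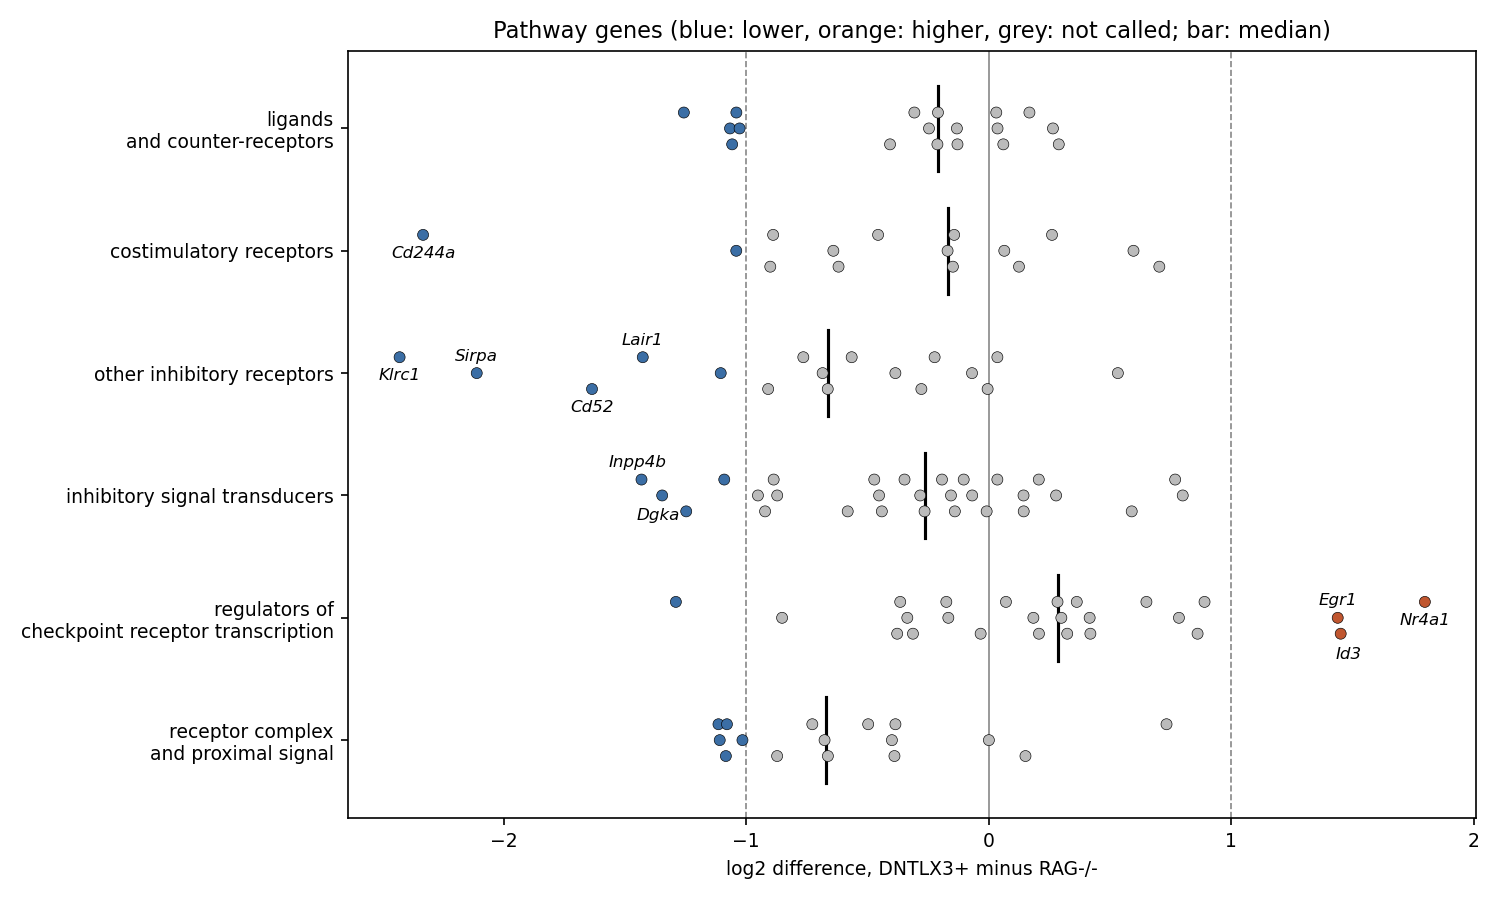
Log2 difference, DNTLX3+ minus RAG-/- (x axis), of each measured gene on the 6 pathway lists (y axis), where blue points fell, orange points rose, grey points were not called, black bars are list medians and dashed lines mark a difference of 1. Falls stand on every list, and the 3 rises, Nr4a1, Id3 and Egr1, stand on the list of transcription regulators.

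Of 17 genes listed as other inhibitory receptors, 5 fell, 12 were not called and none rose, with a median difference of -0.66. The list is a loose one and also holds Cd47 and Cd52, which are not inhibitory receptors in the strict sense. Klrc1, the NK receptor chain NKG2A, stood at 6.88, 6.96 and 6.77 in the RAG-/- arrays and at 4.42, 3.93 and 4.99 in the DNTLX3+ arrays (difference -2.43, limma adjusted p = 0.000202). Sirpa, the myeloid receptor for CD47, fell 4.32-fold from 8.63 ± 0.17 to 6.52 ± 0.13 (SD, n = 3; limma adjusted p = 4.37e-05). Cd52, a glycoprotein of lymphocytes and myeloid cells, fell by 1.64 (limma adjusted p = 0.000103) and the collagen receptor gene Lair1 by 1.43 (limma adjusted p = 0.000202). The fifth was Lilrb4a (-1.10). Cd47 itself, which marks cells as self to SIRPA, differed by -0.66, short of the minimum difference.

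Of 15 genes listed as costimulatory receptors, 2 fell, none rose and 13 were not called, with a median difference of -0.17. This list is loose too, since Cd244a and Cd96 also have known inhibitory roles. Cd244a, an NK receptor of the SLAM family, stood at 8.18, 7.90 and 8.20 in the RAG-/- arrays and at 5.63, 5.70 and 5.95 in the DNTLX3+ arrays (difference -2.33, limma adjusted p = 3.76e-05). Cd84, of the same family, was 2.06-fold lower (limma adjusted p = 0.000461), a call lost without DNTLX3+ replicate 2 (-0.99), after a second quantile normalization (-0.82) and with cyclic loess (-0.86). Without DNTLX3+ replicate 1, 1 gene of this list rose, Cd28.

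Several of these genes are known from myeloid or NK cells, and markers of those cells moved with them. Of 15 myeloid and dendritic markers, 14 fell and none rose, and their mean level on an array was 7.96 to 8.17 in the RAG-/- group and 5.53 to 5.65 in the DNTLX3+ group. There 13 of the 15 had means under the array medians, H2-Aa among them at 5.02. In the RAG-/- group H2-Aa stood at 10.52, beside 10.14 for the DN thymocyte marker Ptcra. Of 14 NK markers, 9 fell and none rose, with mean levels of 7.41 to 7.60 and of 5.80 to 5.95. Ncr1 stood at 7.85 in the RAG-/- group and 4.87 in the DNTLX3+ group. The NK list was not uniform: Gzma, which encodes a granzyme, stood at 8.97 in the RAG-/- group and 9.73 in the DNTLX3+ group, a difference of 0.76 that was short of the minimum, and Klre1, Prf1, Eomes and Tbx21 were not called either. Of 11 thymic epithelial markers, 6 fell and none rose, with mean levels of 8.34 to 8.89 and of 6.40 to 6.70. Prss16 stood at 11.49 in the RAG-/- group and 5.89 in the DNTLX3+ group. This list was not uniform either: Epcam, Krt14 and Aire differed by -0.03, 0.08 and 0.22 and, like Foxn1 and Cldn4, were not called. Of 10 markers of stroma such as the feeder cells, 3 fell and none rose, with mean levels of 6.93 to 7.21 and of 6.38 to 6.48. The part of these cells in the differences of the ligand and receptor genes, Ctla4 included, was not tested.

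Markers of T-lineage and B-lineage types were also counted. None of 7 regulatory T-cell markers was called, at mean levels of 6.92 to 6.96 in the RAG-/- arrays and 6.64 to 6.94 in the DNTLX3+ arrays. Foxp3, which defines that cell type and is known to go with high Ctla4, was under the array medians in both groups (5.88 and 6.06). Of 7 mature alpha-beta T-cell markers, 1 rose and 1 fell, at mean levels of 6.43 to 6.56 and 6.28 to 6.33. Cd8b1, a CD8 chain, rose from 5.48, under the array medians, to 7.00 (difference 1.52, limma adjusted p = 0.000157). Cd8a and Cd4 differed by 0.12 and -0.34 and were not called, and the marker that fell was Ms4a4b (-1.43). Of 7 markers of innate-like and gamma-delta T cells, 1 rose and 2 fell, at mean levels of 7.37 to 7.49 and 7.00 to 7.31. None of 7 B-cell markers was called, and 5 of the 7 were under the array medians in both groups. Of 13 DN thymocyte markers, all but Cd44 in the DNTLX3+ group stood above the array medians in both groups, 4 fell and none rose, at mean levels of 10.50 to 10.56 and 9.81 to 10.10.

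**Figure D5:**
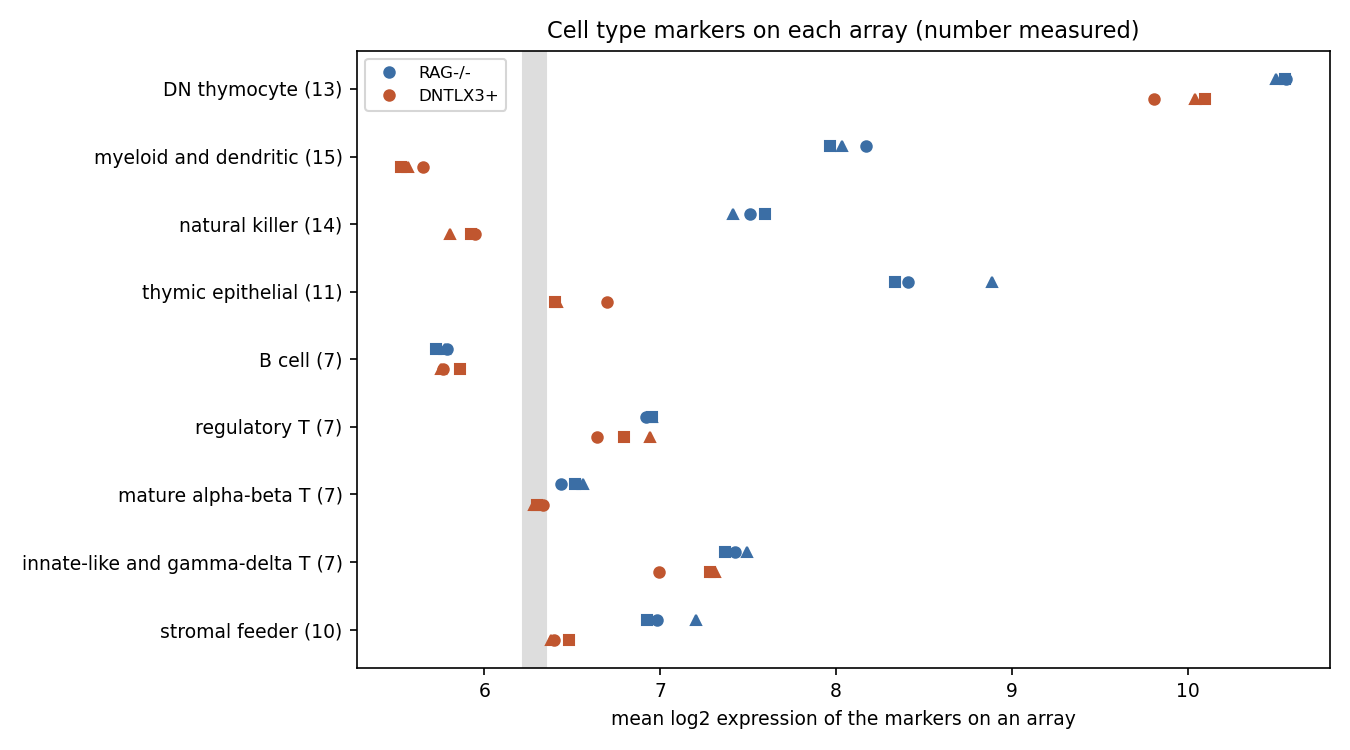
Mean log2 expression of the markers of each cell type on an array (x axis), for the 3 RAG-/- arrays (blue) and the 3 DNTLX3+ arrays (orange), with circles, squares and triangles for replicates 1, 2 and 3, the number of markers measured in brackets and the span of the array medians in grey. The mean levels of the myeloid, NK and thymic epithelial lists are lower on all 3 DNTLX3+ arrays, while regulatory T-cell and B-cell markers lie close together. Single markers such as Gzma, Krt14 and Aire are not lower on all 3.

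Among 29 genes listed as inhibitory signal transducers, 4 fell, none rose and 25 were not called, with a median difference of -0.26. This list is loose as well and also holds Sh2d1a, Sh2d2a and Bag6, which are not inhibitory in the strict sense. Inpp4b, a phosphoinositide phosphatase gene, fell by 1.43 (limma adjusted p = 0.000132). Dgka, a diacylglycerol kinase gene, stood at 10.60, 10.35 and 10.47 in the RAG-/- arrays and at 8.81, 9.32 and 9.24 in the DNTLX3+ arrays, 2.54-fold lower (limma adjusted p = 0.000497). Lax1, an adaptor that dampens receptor signals, fell by 1.25 (limma adjusted p = 0.00118), and the ubiquitin ligase gene Cblb by 1.09 (limma adjusted p = 0.00094). Cblb was not called after cyclic loess (-0.99), with array weights (-0.97) or without DNTLX3+ replicate 1 (-0.96). The phosphatases that inhibitory tails are best known to recruit, Ptpn6 (SHP-1) and Ptpn11 (SHP-2), differed by -0.01 ± 0.12 and -0.07 ± 0.14 (SE).

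Of 25 factors known to regulate transcription of checkpoint receptors, 3 rose, 1 fell and 21 were not called, with a median difference of 0.28, the only one of the 6 list medians above 0. Nr4a1, a receptor-induced nuclear receptor known to act on Pdcd1 in chronically stimulated T cells, stood at 6.11, 6.24 and 6.09 in the RAG-/- arrays and at 7.77, 8.16 and 7.92 in the DNTLX3+ arrays. All 3 DNTLX3+ arrays were high (difference 1.80 ± 0.14 SE, limma adjusted p = 7.44e-05). Id3 and Egr1, both known targets of the thymocyte receptor signal, rose by 1.45 (limma adjusted p = 0.000971) and 1.44 (limma adjusted p = 0.000395), and Id2 was 2.44-fold lower (limma adjusted p = 0.000912). The RAG-/- means of Nr4a1 (6.15), Id3 (5.76) and Egr1 (5.93) lay under the array medians and may be background, so no fold is given for the 3. The NFAT genes Nfatc1, Nfatc2 and Nfatc3 differed by -0.17, 0.07 and 0.42. Tox, a factor of exhausted T cells, differed by 0.21, and Tox2 and Batf by 0.78 and 0.86, short of the minimum difference.

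Of 16 genes of the receptor complex and its first signalling steps, 5 fell, none rose and 11 were not called, with a median difference of -0.67. Trat1, a transmembrane adaptor (2.16-fold), Ptcra, the pre-T-cell receptor alpha chain (2.16-fold), Fyn, a Src-family kinase (2.12-fold), and Txk, a Tec-family kinase (difference -1.08), were 4 of them, at limma adjusted p of 0.00097, 0.000471, 0.000459 and 0.000427. The other was Themis (-1.01). Cd3e and Cd247 differed by -0.50 and -0.38, and the kinase gene Zap70 stood at 7.74, 7.70 and 7.62 in the RAG-/- arrays and at 8.28, 8.62 and 8.36 in the DNTLX3+ arrays, a difference of 0.73. Cd69, an early marker of receptor engagement, differed by 0.15 from means under the array medians. The number that fell was 2 after a second quantile normalization, 1 with cyclic loess and 3 without DNTLX3+ replicate 1, where Trat1 (-0.97) and Themis (-0.92) lost their calls.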

How the data were processed

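Total RNA was labelled with biotin and hybridised to 1-colour arrays. The deposited values are log2 expression per probe set which, per the submitters' processing notes, the authors made by RMA (background correction, quantile normalization, probe summary) with affy in R 2.9.0. This method equalizes probe distributions, yet the spread still differed between the groups. The genome build was not given in the sources used here. Of 34760 probe sets, 6568 numbered before the genome-ordered ones, with no gene listed, were left out as presumed controls. Of the 28192 tested, 21640 had 1 gene symbol, 1321 several and 5231 none listed. Symbols were updated by gene ID in a RefSeq table of GRCm38.p6 (21553 matched). Each gene was represented by its brightest single-symbol probe set over the 6 arrays.

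Differences were fitted in R 4.3.3 with limma 3.58.1 (lmFit, then eBayes; two-sided) without covariates, and p was adjusted by Benjamini-Hochberg over all 28192. Genes called, said to have risen or fallen, had an adjusted p under 0.05 and a log2 difference of size 1 or more. Folds are given where both group means exceed the array medians. Receptors, gene lists and tests were chosen with earlier results of these data known. The text names the 10 receptors, all measured ligands, up to 4 called genes per list and direction, and the 2 genes nearest in pattern to each receptor; all other genes named were chosen after their values were seen. Listed pathway genes without a value of their own are not analysed here. Lists were only counted, with no set test. Alternatives were quantile normalization again, equal array medians, cyclic loess, array weights, a robust fit with an intensity trend, a block on replicate number, the mean of probe sets, 2 filters on dim probe sets, limma treat, the adjusted p alone, and each array left out. Plots used matplotlib 3.10.9.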

Additional observations from a re-analysis of the deposited data

How the results depend on the processing

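Over the counts of called genes and the median of the 10 receptors, 72 values from alternatives stayed within 1.5 times the reported count or within the replicate spread, and 10 did not. Some alternatives could not move a receptor's difference: the robust fit with a trend, the replicate block, the filters and the mean of probe sets. The tally is therefore no measure of how stable the receptors are. With the adjusted p alone, 3858 genes were lower and 4595 higher, and of the pathway genes 48 were lower and 14 higher. With limma treat against a minimum difference of 1, these counts were 122, 7, 3 and 1. The number of genes called higher was 147 instead of 288 when probe sets under the median level were left out, which also left fewer genes to test. The median of the 10 receptors was -0.33 after cyclic loess, and no median was computed with that filter, which removed 5 of them. With 1 array left out, 18 to 23 pathway genes were lower and 3 to 4 higher. As a description of the values the receptors were chosen on, the difference of Pdcd1 ranged from 1.18 to 1.38 over 15 fits, some of which leave it unchanged by design. That of Ctla4 ranged from -1.38 to -1.11, that of Cd5 from 0.57 to 1.06 and that of Cd6 from 0.76 to 1.04. Same-numbered arrays of the 2 groups deviated from their group means with correlations of -0.11, 0.06 and -0.00, and differently numbered arrays with -0.15 to 0.12. With 3 arrays per group, these values cannot decide whether same-numbered samples share more than a number. With the replicate block, 1013 genes were lower and 289 higher, 22 pathway genes were lower and 3 higher, and the median of the 10 receptors was -0.15. Levels under the array medians, which hold for Btla, Tigit, Havcr2, Cd160 and Cd200 in both groups, limit what can be said of these receptors.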
